A study of Mus musculus with 11 samples.

Results

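The neurotrophin system was followed here through 7 genes, chosen by name. They were the ligands Bdnf and Ntf3, the Trk receptors Ntrk2 and Ntrk3, the p75 receptor Ngfr, and the sortilin-family receptors Sort1 and Sorcs1. All 7 were among the 55401 genes listed in the count tables, and 6 of them were among the 16817 genes with enough reads to be tested. Other neurotrophin and Trk genes were not analysed here. The libraries came from mice that bore tumours of MOC1 cells, which are mouse oral carcinoma cells (3 female and 3 male libraries), and from sham mice (3 female and 2 male libraries). In both groups the trigeminal ganglia of both sides were dissociated, and neurons whose endings had taken up DiI, a retrograde membrane dye, were sorted into lysis reagent for poly(A) RNA sequencing. The labels give no strain, age or time after tumour, and do not say whether a library is 1 animal, so p-values measure the spread between libraries, part of which may be technical.

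Neurotrophins are secreted growth factors that keep sensory neurons alive during development and later tune their excitability. They are made as precursors and cut to a mature form. BDNF, which peptidergic pain-sensing neurons make and release, signals through TrkB, the product of Ntrk2, and NT-3, the product of Ntf3, signals mainly through TrkC, the product of Ntrk3. The p75 receptor binds all neurotrophins, and binds the uncut precursors together with sortilin. Sortilin also sorts BDNF into secretory vesicles and moves Trk receptors along axons, and SorCS1 is a related sorting receptor of neurons. In sensory ganglia, Ntrk2 and Ntrk3 mark mainly myelinated mechanosensory neurons, while Schwann cells and satellite glia can also express Ntrk2, largely as a form without the kinase, and Ngfr.

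The libraries held between 10757426 and 16703797 reads counted to genes (10757426 to 15739544 in MOC1 and 15510643 to 16703797 in sham libraries). The labelled cell type was present: 20 pan-neuronal genes summed to between 10894 and 11568 counts per 1000000 (CPM) in MOC1 libraries and between 8305 and 10165 CPM in sham libraries. Glial RNA was present as well and differed between the groups. Satellite glia are the cells that lie around each sensory neuron, and their 16 markers summed to between 3531 and 6388 CPM in MOC1 libraries and between 10028 and 11898 CPM in sham libraries. None of these 16 was at 0, and the most abundant, the lipid carrier Apoe, averaged 2208 ± 404 CPM in MOC1 libraries and 4835 ± 485 CPM in sham libraries (SD, n = 6 and 5). The 15 Schwann cell myelin markers summed to between 876 and 1039 CPM in the MOC1 and between 1226 and 1504 CPM in the sham libraries. The 10 fibroblast markers were also lower, at 66.8 to 80.8 CPM in the MOC1 and 113 to 199 CPM in the sham libraries. Of the 9 tested, 2 were called lower, against 4.28% of all genes. The sums of 10 macrophage markers overlapped, at 8.83 to 30.6 CPM in the MOC1 and 17.6 to 63.2 CPM in the sham libraries. The 12 squamous and tumour-cell markers summed to between 402 and 518 CPM in the MOC1 and between 406 and 462 CPM in the sham libraries, nearly all of it Cdh1 (444 ± 42.8 CPM in the MOC1 and 424 ± 28.3 CPM in the sham libraries). Krt5, Krt6a, Krt17, Krt8 and Krt18 were at 0 in all libraries, Dsg3 (up to 1.97 CPM) and Krt14 (up to 0.57 CPM) had reads in MOC1 libraries only and Epcam (up to 1.31 CPM) in sham libraries only. None of the 6 tested markers of this list was called. Earlier results of these data set apart the libraries sham female 1, whose endothelial and mural markers summed to 1472 CPM against 185 to 408 CPM in the other 10 libraries, MOC1 female 3 and MOC1 male 2. MOC1 female 3 and MOC1 male 2 had the fewest genes with a read, 14180 and 15327, against 16043 to 19078 in the other libraries.

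Of the 6 tested genes, Bdnf rose in MOC1 libraries and Ntrk2, Sort1 and Sorcs1 fell, while Ngfr and Ntrk3 did not pass the test. The test was edgeR's quasi-likelihood F test over all genes with sex as a term, and a call is a Benjamini-Hochberg adjusted p under 0.05. Over all genes 6.62% were called, 2.34% higher and 4.28% lower in MOC1 (18.5% had an unadjusted p under 0.05), and the median log2 fold change of all genes was -0.03. In the 4 called genes the ranges of the MOC1 and sham libraries did not overlap, which held for 6.33% of all genes tested (MOC1 higher in 2.15%, lower in 4.18%). Without sham female 1, MOC1 female 3 and MOC1 male 2 the same 4 genes were called, at 0.99 for Bdnf, -0.72 for Ntrk2, -0.42 for Sort1 and -0.88 for Sorcs1. The genes were chosen with results of this comparison known, so these shares give the background and no more.

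**Figure D1:**
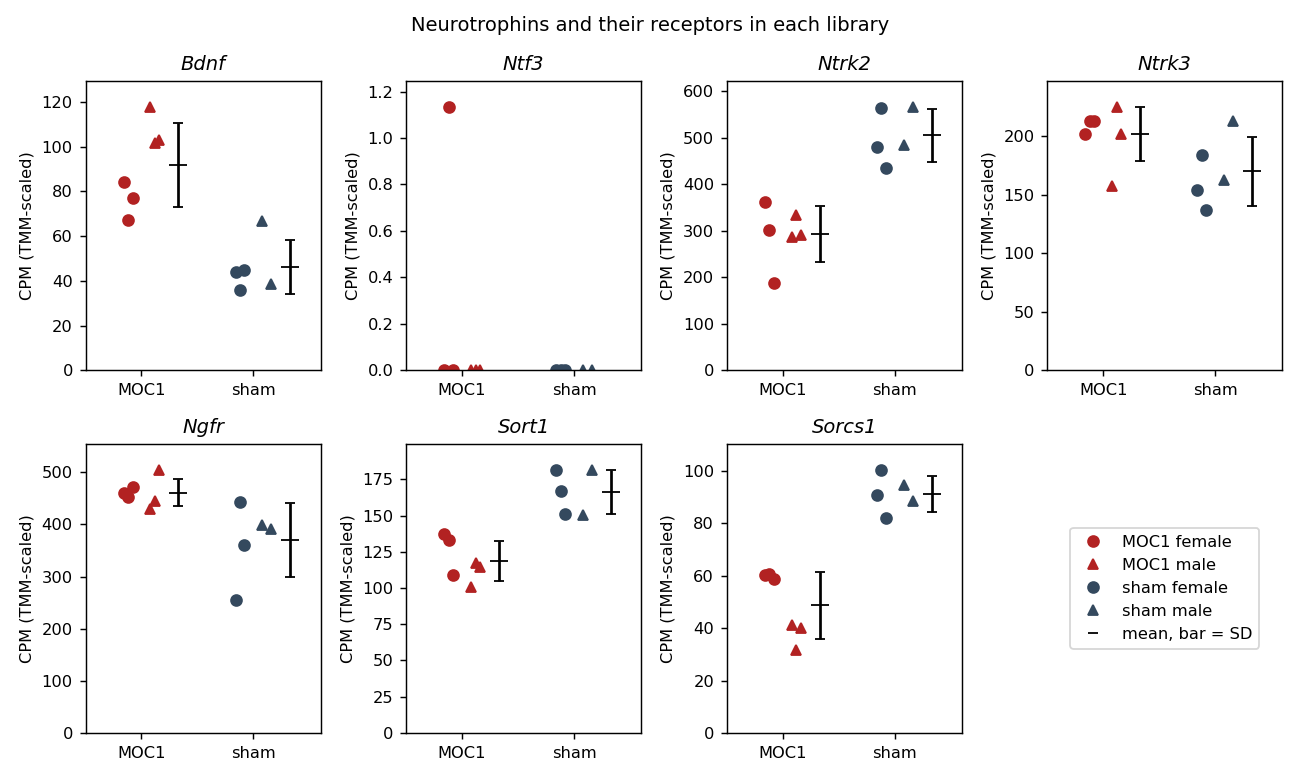
CPM after TMM scaling (y axis, linear, from 0) of the 7 genes in each MOC1 (left, red) and sham (right, dark) library, with circles for females, triangles for males, and mean and SD beside each group except for Ntf3. All MOC1 libraries lie above all sham libraries for Bdnf and below them for Ntrk2, Sort1 and Sorcs1.

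Promoter sequence is shown for the gene that rose and the 2 that fell most, since their RNA levels moved furthest. RefSeq (GRCm38.p6) in the table used here lists 12 transcription starts for 5 of the 7 genes, 7 of them of Bdnf, and counts per gene do not say which Bdnf start was used. The 250 bases before each start were searched on both strands for the CRE half-site TGACG (bound by CREB), the AP-1 site TGANTCA (bound by Fos and Jun proteins) and the E-box CACGTG (bound by basic helix-loop-helix factors such as Bhlhe40). The CRE half-site was found before 1 of the 7 Bdnf starts, 35 bases upstream, against 17.8% of all 32851 windows of this length. The AP-1 site was found before 1 other Bdnf start, 152 bases upstream, against 6.75% of all windows. The E-box, in 6.02% of all windows, was not found before any Bdnf start, and none of the 3 motifs was found before Ntrk2 or Sorcs1. The Bdnf windows with a match and the windows of Ntrk2 and Sorcs1 read as follows, 5′ to 3′ in the direction of the gene, with the match in capitals (the CRE half-site lies on the opposite strand and reads CGTCA here).
Bdnf window at chr2:109676782-109677031 (+ strand): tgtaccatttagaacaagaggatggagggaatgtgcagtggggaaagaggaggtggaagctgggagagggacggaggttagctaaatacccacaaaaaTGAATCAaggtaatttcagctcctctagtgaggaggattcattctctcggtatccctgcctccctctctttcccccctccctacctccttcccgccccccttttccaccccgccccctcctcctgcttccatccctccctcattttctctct
Bdnf window at chr2:109692186-109692435 (+ strand): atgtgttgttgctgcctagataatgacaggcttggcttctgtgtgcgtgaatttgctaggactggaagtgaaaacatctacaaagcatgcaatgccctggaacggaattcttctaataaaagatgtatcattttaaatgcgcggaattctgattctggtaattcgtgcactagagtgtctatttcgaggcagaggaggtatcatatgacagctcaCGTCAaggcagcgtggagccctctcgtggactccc
Ntrk2 window at chr13:58806319-58806568 (+ strand): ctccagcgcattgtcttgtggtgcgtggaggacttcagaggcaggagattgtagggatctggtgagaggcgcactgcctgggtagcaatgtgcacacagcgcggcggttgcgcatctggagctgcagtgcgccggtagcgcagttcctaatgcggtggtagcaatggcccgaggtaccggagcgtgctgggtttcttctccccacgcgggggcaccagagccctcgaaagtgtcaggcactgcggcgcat
Sorcs1 window at chr19:50678647-50678896 (- strand): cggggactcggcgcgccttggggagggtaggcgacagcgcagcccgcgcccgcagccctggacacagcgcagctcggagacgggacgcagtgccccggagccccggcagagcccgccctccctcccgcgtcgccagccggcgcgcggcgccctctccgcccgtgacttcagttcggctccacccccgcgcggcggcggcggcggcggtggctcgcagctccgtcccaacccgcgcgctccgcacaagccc

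Among the ligands, Bdnf was the one with reads in every library. Bdnf (ENSMUSG00000048482.14, chr2:109674700-109727007 on the + strand of GRCm38) stood at 84.0, 67.3 and 77.0 CPM in the MOC1 female libraries and at 118, 101 and 103 CPM in the MOC1 male libraries, against 44.1, 36.1 and 44.8 CPM in the sham female and 66.7 and 38.4 CPM in the sham male libraries. The lowest MOC1 library, female 2 at 67.3 CPM, lay just above the highest sham library, male 1 at 66.7 CPM, and the other sham libraries lay at 44.8 CPM or below. Within MOC1 all males lay above all females, whereas the sham libraries of the sexes overlapped. The mean was 91.8 ± 18.8 CPM in the MOC1 and 46.0 ± 12.1 CPM in the sham libraries (SD, n = 6 and 5). Bdnf rose 1.92-fold (log2 fold change 0.94 ± 0.13 SE, adjusted p = 1.50e-04 with edgeR). Without any 1 library the log2 change lay between 0.81 and 1.06, and the call held each time. Scaled to the pan-neuronal genes, which moves the median of all genes to -0.31, Bdnf was still higher in MOC1 at 0.67 (edgeR adjusted p = 0.00412), but within each sex it was then not called (0.53 in females and 0.83 in males, edgeR adjusted p = 0.0770 and 0.0546). Markers of peptidergic nociceptors, the neurons that make BDNF, summed to between 3157 and 4369 CPM in the MOC1 and between 2664 and 2981 CPM in the sham libraries, and 4 of the 10 rose. Among all genes tested 2.34% were called higher. Of the 20 pan-neuronal genes 9 rose as well, with a median log2 change of 0.28, against 0.32 for the peptidergic markers. The part of peptidergic neurons in the rise of Bdnf was not tested.

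Ntf3 (ENSMUSG00000049107.13, chr6:126101412-126166910, - strand) had 17 reads in MOC1 female 2, which is 1.13 CPM, and 0 reads in the other 5 MOC1 libraries and in all 5 sham libraries. A count of 0 allows up to 3 reads, or 0.177 to 0.278 CPM depending on the library, which covers counting error only. Ntf3 was therefore not detectable at this depth in 10 of 11 libraries and was not tested.

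Of the Trk receptors, Ntrk2 fell and Ntrk3 did not pass the test. Ntrk2 (ENSMUSG00000055254.15, chr13:58806569-59133970, + strand) had 362, 302 and 187 CPM in the MOC1 female and 286, 333 and 291 CPM in the MOC1 male libraries, against 480.1, 564 and 435 CPM in the sham female and 484 and 566 CPM in the sham male libraries. The highest MOC1 library, female 1, lay below the lowest sham library, and MOC1 female 3 was the lowest of all. The mean was 294 ± 59.7 CPM in the MOC1 and 506 ± 57.2 CPM in the sham libraries (SD, n = 6 and 5). The level in MOC1 was 57.6% of that in sham (log2 -0.79 ± 0.12 SE, edgeR adjusted p = 3.71e-04). Counts are per gene, so the full-length receptor and the forms without a kinase cannot be told apart.

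The level of Ntrk2 moved with the satellite glial markers from library to library, in a relation added after the data had been seen. Across the 6 MOC1 libraries, log2 Ntrk2 and the log2 summed satellite glial markers had a Pearson r of 0.93 (exact permutation p = 0.00556, 0.0333 adjusted over the 6 genes related to the sum) and a Spearman rho of 0.83 (exact permutation p = 0.0583, adjusted 0.35). Without the 2 MOC1 libraries farthest from the median of the glial sum, r was 0.84 over 4 libraries. Over all 11 libraries, after the mean of each condition and sex was removed, r was 0.90 for Ntrk2, 0.53 for Sort1, 0.14 for Ntrk3, 0.11 for Ngfr, 0.01 for Bdnf and -0.10 for Sorcs1, as a description. Within the 6 MOC1 libraries r was 0.50 for Sort1 (exact permutation p = 0.317), and -0.095 over 4 libraries without the same 2. Scaled to the satellite glial list, which moves the median of all genes to 1.11, Ntrk2 stood at 0.31 (edgeR adjusted p = 0.0884). In bulk RNA, fewer glial cells in the sort and less Ntrk2 RNA per cell cannot be told apart.

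**Figure D2:**
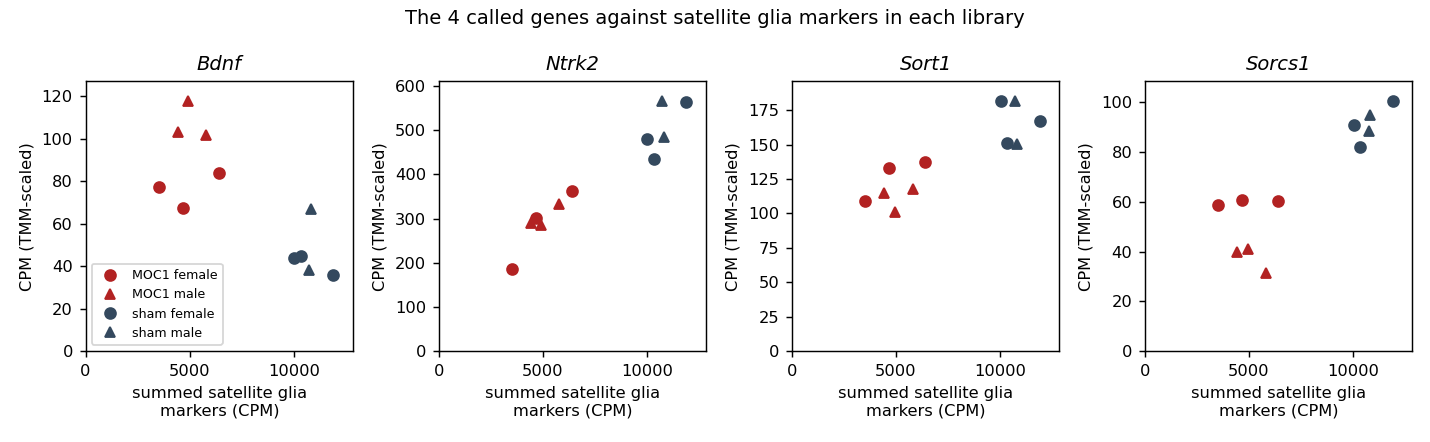
CPM of the 4 called genes (y axis, linear) against the summed CPM of 16 satellite glial markers (x axis, linear) in each library, MOC1 in red and sham in dark, circles for females and triangles for males. Within the MOC1 libraries Ntrk2 is lowest where the glial sum is lowest (187 CPM in MOC1 female 3), and 2 other genes are split by sex within MOC1: Sorcs1 (58.8 to 60.5 CPM in females, 31.5 to 41.2 CPM in males) and Bdnf (67.3 to 84.0 CPM in females, 101 to 118 CPM in males).

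Ntrk3 (ENSMUSG00000059146.12, chr7:78175959-78738012, - strand) had 202, 213 and 213 CPM in the MOC1 female and 158, 224 and 202 CPM in the MOC1 male libraries, against 154, 184 and 137 CPM in the sham female and 162 and 213 CPM in the sham male libraries. The groups overlapped, with MOC1 male 1 below 3 of the 5 sham libraries. The log2 change was 0.25 ± 0.11 SE (95% interval 0.02 to 0.48, edgeR adjusted p = 0.226). With pan-neuronal scaling it was -0.05. Ntrk3 is found among myelinated neurons. Their markers summed to between 4536 and 6539 CPM in the MOC1 and between 4119 and 5474 CPM in the sham libraries. Of these markers 1 of 14 rose, against 2.34% of all genes called higher. Their median log2 change was 0.22, against 0.28 for the pan-neuronal genes, of which 9 of 20 rose.

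Ngfr, the p75 receptor, which the study's description gives as an example of a gene compared (ENSMUSG00000000120.6, chr11:95568818-95587735, - strand), had 460.0, 452 and 473 CPM in the MOC1 female and 429, 446 and 504 CPM in the MOC1 male libraries. The sham female libraries had 255, 442 and 361 CPM and the sham male libraries 399 and 392 CPM. Of the sham libraries only female 2 reached into the MOC1 range, and female 1 stood lowest. The log2 change was 0.31 ± 0.10 SE (95% interval 0.09 to 0.53) with an adjusted p of 0.0849 with edgeR and 0.0276 with DESeq2, so the call depends on the tool. It was also called by edgeR with no filter on low counts (adjusted p = 0.0027) and without sham female 2 (log2 change 0.40). Without the low sham female 1 the log2 change was 0.21, and with pan-neuronal scaling it was 0.03 (edgeR adjusted p = 0.878).

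Both sortilin-family receptors fell, a direction that turned with satellite glial scaling. Sort1 (ENSMUSG00000068747.14, chr3:108284082-108361511, + strand) had 137, 133 and 109 CPM in the MOC1 female and 101, 118 and 114 CPM in the MOC1 male libraries, against 182, 167 and 151 CPM in the sham female and 151 and 181 CPM in the sham male libraries. Every MOC1 library lay below every sham library. The mean was 119 ± 14.0 CPM in the MOC1 and 166 ± 15.3 CPM in the sham libraries (SD, n = 6 and 5), 71.8% of the sham level (log2 -0.48 ± 0.09 SE, edgeR adjusted p = 0.00269). Scaled to the satellite glial list Sort1 stood at 0.65, below the 1.11 of all genes, and was called higher in MOC1 (edgeR adjusted p = 9.57e-04). With this scaling 10177 of the 16817 genes tested were called higher.

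Sorcs1 (ENSMUSG00000043531.16, chr19:50143299-50678646, - strand) had 60.4, 60.5 and 58.8 CPM in the MOC1 female and 41.2, 31.5 and 39.9 CPM in the MOC1 male libraries, against 90.9, 100.4 and 81.9 CPM in the sham female and 94.7 and 88.5 CPM in the sham male libraries. The MOC1 libraries split by sex without overlap, all males below all females, whereas the sham libraries of the sexes overlapped. Over both sexes the level in MOC1 was 53.2% of that in sham (log2 -0.91 ± 0.13 SE, edgeR adjusted p = 1.53e-04). With pan-neuronal scaling the change was -1.20 (edgeR adjusted p = 9.22e-06), and with satellite glial scaling it was 0.24, again below the median of all genes.

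Adding the satellite glial share as a covariate, which does not overlap between the groups, left no gene called by edgeR among the 7 or among all genes, although 1245 had an unadjusted p under 0.05. In that fit Bdnf stood at 0.98 and Sorcs1 at -1.03 (edgeR adjusted p = 0.603 and 0.599), Sort1 at -0.16 and Ntrk2 at 0.34. The estimates of Bdnf and Sorcs1 were close to those without the covariate, but neither could be told from 0 in this fit. The part of glial RNA in these results was not tested.

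**Figure D3:**
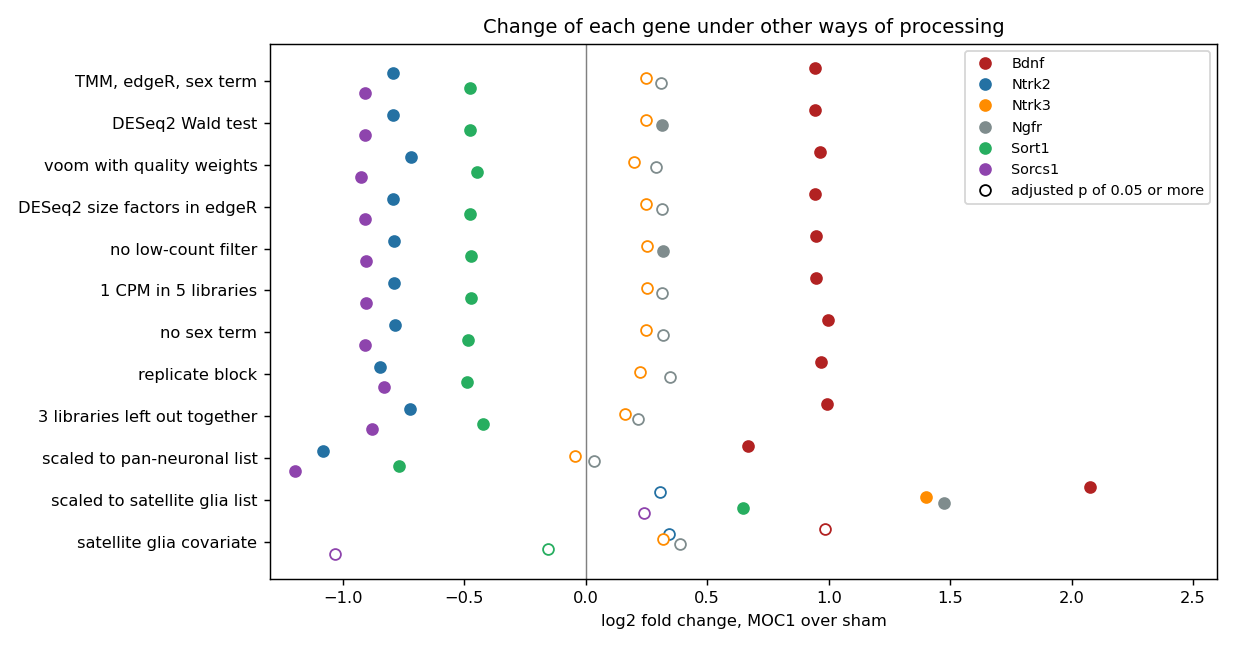
Log2 fold change of MOC1 over sham (x axis) of the 6 tested genes with TMM, edgeR and a sex term (top row) and 11 other ways of processing, with filled points where the adjusted p was under 0.05. Bdnf stays above 0 in every row, and Ntrk2 lies below 0 except with satellite glial scaling (0.31) and the glial covariate (0.34).

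Within females the changes were 0.87 ± 0.18 SE for Bdnf, -0.80 ± 0.17 for Ntrk2, -0.60 ± 0.14 for Sorcs1 and -0.40 ± 0.12 for Sort1. The first 3 of these were called (edgeR adjusted p = 0.00952, 0.0120 and 0.0210), against 4.48% of all genes (1.33% higher, 3.15% lower), and Sort1 was not (0.0821). Within males they were 1.03 ± 0.20 for Bdnf, -0.79 ± 0.19 for Ntrk2, -1.29 ± 0.16 for Sorcs1 and -0.58 ± 0.14 for Sort1, and all 4 were called (edgeR adjusted p = 0.0148, 0.0447, 5.85e-04 and 0.0447), against 1.25% of all genes (0.166% higher, 1.09% lower). An unadjusted p under 0.05 was found for 17.3% of genes in females and 7.95% in males. With 2 sham males, the male calls of Bdnf, Ntrk2 and Sort1 rest on single libraries, and the calls of Ntrk2 and Sort1 were each lost in 7 of 11 cases when 1 library was left out, among them each of the 5 male libraries. Without sham male 3 the male change of Bdnf was 0.69 and without sham male 1 it was 1.48, and the male call of Bdnf was lost when MOC1 male 1, MOC1 male 3 or sham male 3 was left out. Without sham female 2, the female changes of Bdnf (0.78), Ntrk2 (-0.69) and Sorcs1 (-0.53) were not called, and Ngfr was (0.58, edgeR adjusted p = 0.0235). The female call of Sorcs1 was also lost without MOC1 female 2, MOC1 female 3 or sham female 1 (edgeR adjusted p = 0.0662, 0.0513 and 0.0527).

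The difference between the sexes was tested directly as the female change minus the male change. For Sorcs1 it was 0.68 ± 0.21 SE (95% interval 0.24 to 1.13, unadjusted p = 0.00476), which did not pass over all genes (edgeR adjusted p = 1.00). For the other 5 genes the unadjusted edgeR p was 0.113 or more. No gene of the 16817 passed this test in edgeR, DESeq2 or voom with quality weights, and 708 had an unadjusted edgeR p under 0.05 (4.21%).

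**Figure D4:**
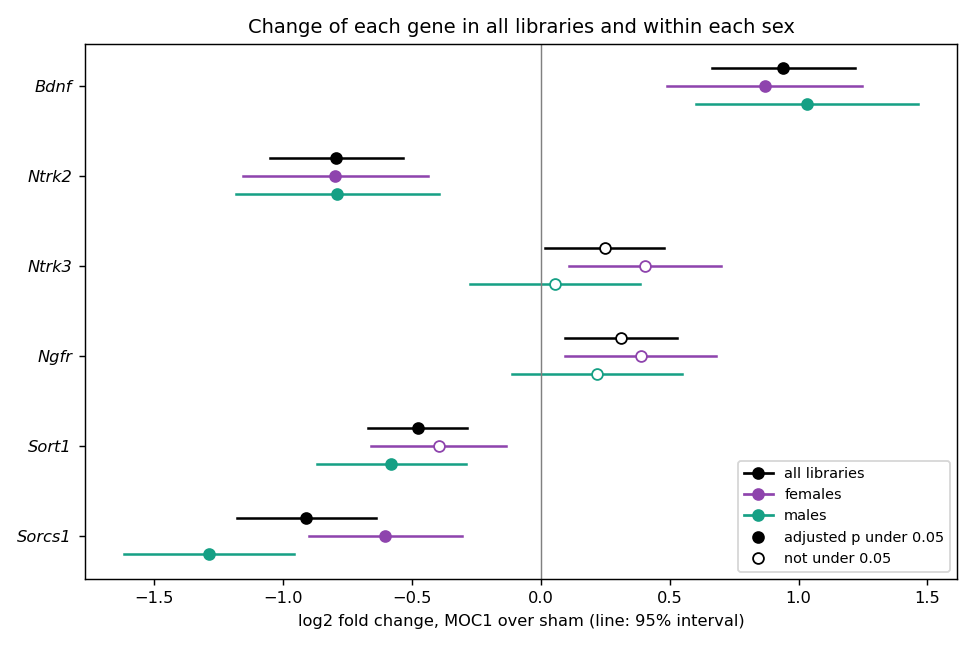
Log2 fold change of MOC1 over sham (x axis, points) with its 95% interval (lines) for the 6 tested genes, in all libraries (black), females (purple) and males (green), with filled points where the adjusted p was under 0.05. Sorcs1 has the widest gap between the sexes, -0.60 in females and -1.29 in males.

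Levels can be set side by side between genes only per length, here as mean CPM per kb of annotated exon. In MOC1 libraries Ngfr had 134 ± 7.48 CPM per kb, Sort1 15.7 ± 1.85, Ntrk2 15.2 ± 3.09, Bdnf 14.8 ± 3.02, Ntrk3 6.69 ± 0.77 and Sorcs1 5.77 ± 1.51 (SD, n = 6). In sham libraries Ngfr had 107 ± 20.4 CPM per kb, Ntrk2 26.2 ± 2.96, Sort1 22.0 ± 2.03, Sorcs1 10.8 ± 0.82, Bdnf 7.40 ± 1.95 and Ntrk3 5.63 ± 0.97 (SD, n = 5). Ngfr stood above every other gene in all libraries. Sort1, Ntrk2 and Bdnf were within their spread of each other in MOC1, as were Ntrk3 and Sorcs1, and in sham the ranges of Ntrk2 and Sort1, of Sorcs1 and Bdnf, and of Bdnf and Ntrk3 overlapped. The order depends on the length taken: per kb of the longest transcript Ntrk2 had 33.6 and Bdnf 21.5 CPM per kb in MOC1, and 57.8 and 10.8 CPM per kb in sham.

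The genes most like each of the 6 in log2 CPM were found over the 11 libraries after the mean of each condition and sex was removed, as a description of libraries that share their depth and cell content. For Bdnf they were Pla2g4a (r = 0.95), Alkal2 (0.92) and Sgpp1 (0.92), and for Ntrk2 they were Abhd4, Gprc5b and Dcaf17 (each 0.97). For Sort1 they were Cdyl2, Enpp3 and Fndc3b (each 0.94), for Sorcs1 Mlxip (0.97), Flot2 (0.96) and Gcc1 (0.95), for Ntrk3 Nup155 (0.98), Mdga1 (0.95) and Adcy3 (0.93), and for Ngfr Creg2 (0.97), Srr (0.96) and Adgrb1 (0.94). Over all 11 libraries with the group means kept, these values spread widely. Abhd4 and Gprc5b stood at 0.97 with Ntrk2, Mdga1 at 0.96 with Ntrk3 and Alkal2 at 0.95 with Bdnf, whereas Mlxip stood at 0.32 with Sorcs1, Pla2g4a at 0.19 with Bdnf, Cdyl2 at 0.14 with Sort1 and Adgrb1 at 0.12 with Ngfr. Flot2 ran opposite to Sorcs1 over all libraries, at -0.71. The r values with group means removed were the highest of a search over many genes in 11 libraries, and such a search alone can give high values.

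Genes that act around these ligands and receptors were counted in 7 lists. Of their 99 genes tested, 8 rose and 10 fell (18.2% called, against 6.62% of all genes), and their median log2 change was -0.01, against -0.03 for all genes. These lists were written with earlier results of the data known, and members such as Vgf and Egr1 were known to change. Levels in them are means ± SD (n = 6 MOC1 and 5 sham libraries) and log2 changes are ± SE.

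Among the other sortilin-family receptors, Sorcs2, which pairs with p75 in binding precursor neurotrophins, was the 1 of 3 that fell, to 29.5 ± 7.70 CPM in MOC1 against 50.5 ± 13.9 CPM in sham libraries (log2 -0.76 ± 0.20 SE, edgeR adjusted p = 0.0220). In the list of precursor processing and release, 2 of 13 rose and 1 fell. Plat, the tissue plasminogen activator that sets off the plasmin cleavage of BDNF precursor, fell to 19.7 ± 1.54 CPM in MOC1 against 46.5 ± 19.3 CPM in sham libraries (log2 -1.13 ± 0.21), while its inhibitor Serpini1, neuroserpin, rose by 0.28 ± 0.08 (edgeR adjusted p = 0.0480) and the vesicle-priming factor Cadps by 0.26 ± 0.06. The sham libraries split by sex for Plat, at 73.2, 56.6 and 46.1 CPM in females and 26.1 and 30.4 CPM in males. All MOC1 libraries lay between 16.9 and 21.4 CPM. The highest sham value was that of sham female 1, set apart above for its endothelial and mural markers. Without sham female 1 the log2 change of Plat was -0.97. Serpini1 lost its call without any of 8 single libraries, and with pan-neuronal scaling Serpini1 stood at 0.00 and Cadps at -0.02, neither of them called.

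Of 14 genes for partners and effectors of p75, Adam17, a protease that sheds p75 from the cell surface, was the 1 that changed, at 29.8 ± 3.24 CPM in MOC1 against 58.2 ± 10.4 CPM in sham libraries (log2 -0.97 ± 0.14 SE, edgeR adjusted p = 1.58e-04). Of 24 Trk adaptors and partners, the adaptor Shc2 rose (log2 0.40 ± 0.10, but 0.12 and not called with pan-neuronal scaling) and its relative Shc4 fell (-0.77 ± 0.23, edgeR adjusted p = 0.0464). In the list of Trk trafficking and negative feedback 3 of 16 fell and none rose, with a median of -0.29. They were the MAP kinase phosphatases Dusp4 (7.41 ± 3.55 CPM in the MOC1 and 22.4 ± 3.61 CPM in the sham libraries, log2 -1.62 ± 0.27) and Dusp6 (-0.68 ± 0.17), and Lrig1 (-0.89 ± 0.19), a membrane protein that limits receptor tyrosine kinases.

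Of 15 regulators of Bdnf transcription, the repressor Bhlhe40 was the 1 that changed, at 57.9 ± 15.6 CPM in the MOC1 and 108 ± 24.7 CPM in the sham libraries (log2 -0.88 ± 0.19 SE, edgeR adjusted p = 0.00620). Among 14 transcripts that neurotrophins are known to raise in sensory neurons, 5 rose and 2 fell. Those that rose were the secreted peptide precursor Vgf (150.1 ± 26.7 CPM in the MOC1 and 70.5 ± 19.2 CPM in the sham libraries, log2 1.07 ± 0.14), the sodium channel Scn9a (0.36 ± 0.07), the granin Scg2 (0.33 ± 0.08), the CGRP gene Calca (0.28 ± 0.07) and the heat-gated channel Trpv1 (0.32 ± 0.08), the last named after its value was seen. Those that fell were the immediate-early genes Egr1 (312 ± 61.7 CPM in the MOC1 and 862 ± 260 CPM in the sham libraries, log2 -1.45 ± 0.16) and Arc (-1.54 ± 0.20). Calca, Scg2 and Trpv1 are also among the peptidergic nociceptor markers that rose, so the 2 lists do not give separate results for them. With pan-neuronal scaling Vgf stood at 0.78 and was called, while Scn9a (0.08), Scg2 (0.05) and Calca (-0.0046) were not. Scaled to the satellite glial list, with all genes at 1.11, Sorcs2, Plat, Adam17, Shc4, Lrig1, Dusp6 and Bhlhe40 stood between 0.00 and 0.41. Without 1 library at a time, Shc4 lost its call in 7 of 11 cases, Sorcs2 in 4, Calca in 3 and Scg2 in 2. Trpv1 was not followed under these other scalings or without single libraries.

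**Figure D5:**
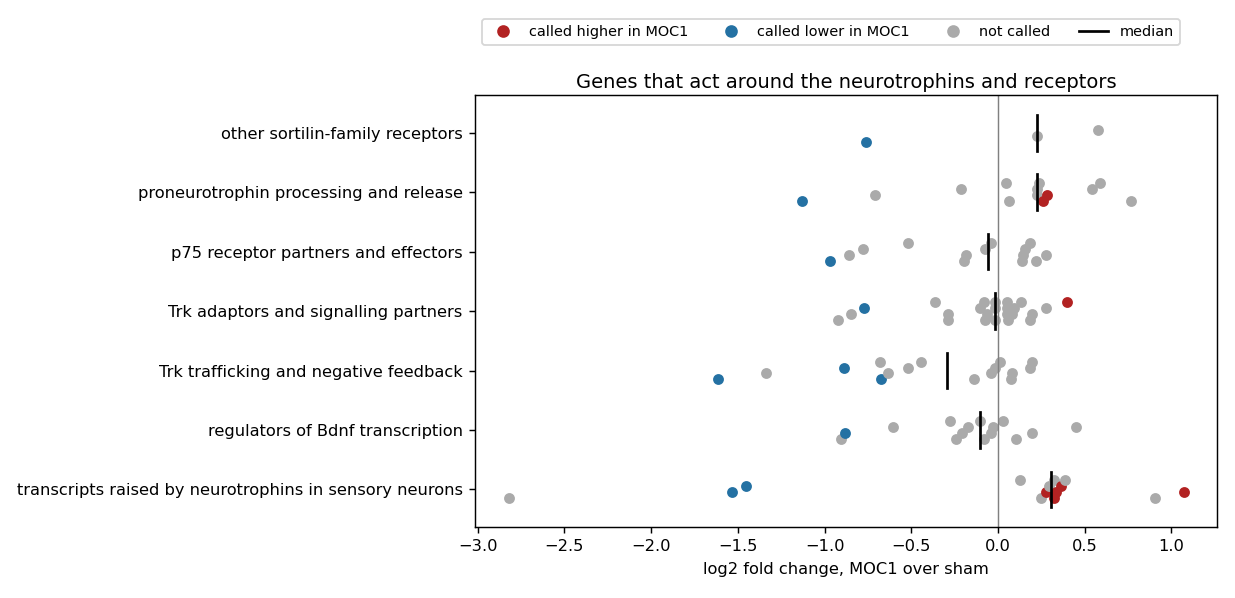
Log2 fold change of MOC1 over sham (x axis) of each tested gene in the 7 lists around the neurotrophins and receptors, red where called higher, blue where called lower, grey where not called, with the list median as a black bar. The blue points in the feedback list are Dusp4 (-1.62), Lrig1 (-0.89) and Dusp6 (-0.68), and no gene of that list is red.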

How the data were processed

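The authors deposited 1 table per library with strand-specific read counts per gene, per the file headers, as whole numbers that were not normalized. The submitters' processing notes name Trimmomatic 0.35, STAR 2.7.1a, RSEM and the build GRCm38 (mm10). No source used here gives the gene annotation's release, but the positions of the 7 genes equal those of GENCODE M21, which gave the exon lengths. The 4 totals that name no gene held 18.7% to 21.5% of counts and were left out.

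The tests were run with edgeR 4.0.16 in R 4.3.3. filterByExpr selected genes over the 4 groups of condition and sex, and libraries were scaled by TMM. MOC1 was compared with sham with sex as an additive term. A fit of the 4 groups gave the within-sex changes and their difference. A standard error is the size of the log2 change over the square root of F. Marker sums are CPM of all gene counts without TMM. The fits were tested on simulated counts. Libraries of a group differed by more than sampling noise (chi-square divided by its degrees of freedom of 13.9 to 42.4 per pair). Exon overlap with another gene on the same strand was 0 bases for each of the 7 genes.

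The genes and lists were chosen with earlier results of these data known. Beside the 7 genes, the text names up to 4 called genes per direction of each list around them, the 3 genes most like each tested gene (mean of at least 1 CPM, unnamed models and pseudogenes left out, prior count 2), and leading markers. Of the 15 names in the p75 list 14 were found, since 1 is an older symbol. Alternatives were DESeq2 1.42.0, its size factors, voom with quality weights (limma 3.58.1), other filters, scaling to marker lists, a glial covariate, no sex term, the replicate number as a block, and leaving out libraries. The relation to the glial sum was added after the data had been seen.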

Additional observations from a re-analysis of the deposited data

Results flagged for a closer look

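In each of 47 sets of values (a named gene in the MOC1 or the sham libraries), the highest or lowest library was set against the others with Dixon's test, which chance flags in about 5% of sets. It picked out 6. Bdnf stood at 66.7 CPM in sham male 1, above the other sham libraries. Ntf3 stood at 1.13 CPM in MOC1 female 2, with no read in the other MOC1 libraries. Ntrk3 stood at 158 CPM in MOC1 male 1, below the other MOC1 libraries. Serpini1 reached 191 CPM and Egr1 1317 CPM in 1 sham library each, and Shc2 reached 235 CPM in 1 MOC1 library. None of these was weighed further.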

How the results depend on the processing

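Bdnf, Ntrk2, Sort1 and Sorcs1 kept direction and call in MOC1 against sham under DESeq2, voom, DESeq2 size factors, both filters, no sex term, pan-neuronal scaling, the 3 libraries left out together and each single library left out. With satellite glial scaling, which moves the median of all genes to 1.11, Bdnf kept both (2.08, edgeR adjusted p = 4.13e-08). Ntrk2, Sort1 and Sorcs1 turned in sign with that scaling, and Sort1 was then called higher. With the glial covariate none of these genes was called. Bdnf (0.98), Sort1 (-0.16) and Sorcs1 (-1.03) kept their direction in that fit, while Ntrk2 turned. The cause of the changes below was not tested. Within each sex Bdnf was not called with pan-neuronal scaling.

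In MOC1 against sham, 1113 genes were called, and 2353 with pan-neuronal scaling (29 higher and 2324 lower, against 394 and 719), 10221 with satellite glial scaling (10177 higher and 44 lower) and 0 with the glial covariate (edgeR, 1245 unadjusted), which also left 0 of the 7 genes called. In females (753 genes) DESeq2 gave 1271, pan-neuronal scaling 1783, glial scaling 8915, no filter 1316 and the covariate 0, and of the 7 genes 6 were called with no filter and 0 with the covariate. In males (211 genes) DESeq2 gave 375, voom 545, pan-neuronal scaling 330, glial scaling 7907, no filter 469, the covariate 0 and the 3 libraries left out 490, and of the 7 genes 2 were called with the filter of 1 CPM in 5 libraries and 0 with the covariate. The difference between the sexes (0 genes) gave 53 with no filter, 2 with the covariate and 5 without the 3 libraries.

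Leaving out 1 library at a time gave 816 to 1129 genes and 4 to 5 of the 7, in females 345 to 876 and 1 to 3, in males 62 to 340 and 1 to 4, and for the difference 0 to 2 and 0. With 1 sham male left, that library is assumed to vary like the other groups.

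With satellite glial scaling the sign turned for Ntrk2 (0.31), Sort1 (0.65), Sorcs1 (0.24), Sorcs2 (0.37), Plat (0.0016), Adam17 (0.19), Shc4 (0.37), Lrig1 (0.25), Dusp6 (0.41) and Bhlhe40 (0.22), in females for Ntrk2 (0.31), Sort1 (0.76) and Sorcs1 (0.59) and in males for Ntrk2 (0.29) and Sort1 (0.51). With the covariate it turned for Ntrk2 (0.34, females 0.36, males 0.33), Sorcs2 (0.033), Shc2 (-0.18), Dusp6 (0.38) and Bhlhe40 (0.18). With pan-neuronal scaling it turned for Ntrk3 (-0.045, males -0.17), Cadps (-0.025), Calca (-0.0046) and Ngfr in males (-0.00020). Ntrk3 in males was -0.021 with voom, -0.055 without the 3 libraries and -0.13 to 0.26 without 1 library.

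Per kb of the longest transcript, Bdnf stood at 21.5 in MOC1 and 10.8 in sham, Ntrk2 at 33.6 and 57.8, Ntrk3 at 10.2 and 8.62, and Sort1 at 24.3 and Sorcs1 at 12.6 in sham.

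Same-numbered libraries did not deviate together, with correlations of -0.04 to 0.04, so no pairing by number was seen. With so few libraries per group this cannot exclude a pairing, and the labels do not state one. The replicate block gave 1036 genes, the same 4 of the 7 among them, and 1 gene for the difference between the sexes. Serpini1, Shc4 and Scg2 lost their call under the block (edgeR adjusted p = 0.138, 0.133 and 0.0562), and Ntrk3 in males stood at -0.059.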
